A study of Mus musculus with 2 samples.

Results

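Genes for glycosyltransferases and glycan sulfotransferases were examined in luminal cells of the mouse mammary gland, sorted into a Venus High and a Venus Low population. The members were found by gene symbol, as every gene with a probe set paired with its symbol alone whose name belongs to the families Mgat, Gcnt, Galnt, Fut, B3gnt, B3galt, B4galt, B4galnt, St3gal, St6gal, St8sia, Chst, Chsy, Chpf, Csgalnact, Hs2st, Hs3st, Hs6st, Ndst, Ext, Extl, Has and Xylt, followed by a number. This gave 87 of the 13869 genes in the value table, on 149 probe sets. A further 36 protein-coding genes with names of these families, Mgat2, Fut8, Ext1 and Ndst1 among them, had no such probe set in the table and were not analysed here.

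Both populations came from the same pool of 3 adult virgin females, 5 months old, on an FVB background. The mice were Tbx3+/Venus knock-in heterozygotes, in which the sequence of the Venus fluorescent protein sits at the start codon of an allele of Tbx3, so that this allele reports activity of the locus and makes no Tbx3. Both populations therefore carry the reporter and a single functional copy of Tbx3. After dead, CD45+ and stromal cells had been gated out, luminal cells were recognised by CD24 and CD49f, and 200000 cells with high and 200000 with low or no Venus signal were collected, with 1 Affymetrix mouse expression array for each. There are no replicates, so no p-values are given, and the number of arrays limits the precision. Fewer cells of a type and less RNA per cell cannot be told apart in such bulk samples.

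Glycosyltransferases sit mainly in the membranes of the endoplasmic reticulum and the Golgi, where they move sugars from nucleotide donors onto proteins, lipids and growing glycan chains. They act in sequence: N-glycans are trimmed and then branched, mucin-type O-glycans are started on serine or threonine and then extended, and both kinds of chain are finished with galactose, sialic acid or fucose. Proteoglycans carry chondroitin or heparan sulfate chains, which sulfotransferases then pattern and which bind growth factors. In the mammary gland the galactosyltransferase B4galt1 also makes lactose, together with alpha-lactalbumin, during lactation.

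Values are log2 array signals. The lowest, 3.32, is the log2 of a signal of 10 and was taken as a floor. Where Venus Low cells lie at it, a fold difference is a lower bound. In 0 probe sets of the table is the Venus High value below the Venus Low value, so members that fell in Venus High cells are not seen here and every median lies at or above 0 by construction. Among probe sets with a signal of 100 or more on at least 1 array, the median was 8.21 in Venus High cells against 7.55 in Venus Low cells, a gap of 0.66, and whether the arrays share a common scale is unknown. The missing lower values alone keep this gap at or above 0, so it cannot measure a shift in scale. Every direction is fixed by the table, and differences below the gap are not read as a direction. Probe sets of the same gene that reached a signal of 100 differed with a pooled SD of 0.31 on the log2 scale, over 1062 genes. This SD describes probe sets within these arrays, not animals.

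Hormone-sensing markers with a value differed between the populations. Of 7 listed, 5 had a value: Pgr, Prom1, Tbx3, Foxa1 and Esr1. Prlr and Ly6a were not analysed here. The Venus High value exceeded the Venus Low value at least 4-fold in all 5. Pgr, the progesterone receptor gene, had log2 signals of 11.93 in Venus High cells against 5.05 in Venus Low cells. The direction is fixed by the table, which holds no lower values, and Tbx3 is the locus whose reporter defined the sort. Of 5 luminal markers, 3 had a value, all above a signal of 100 and none 4-fold higher, with 13.22 in Venus High cells against 13.13 in Venus Low cells for Krt8, 12.94 in Venus High cells against 11.96 in Venus Low cells for Krt19 and 13.17 in Venus High cells against 12.39 in Venus Low cells for Cd24a. None of the 7 alveolar progenitor markers had a probe set in the table. The basal markers Krt14, Acta2, Myh11 and Trp63 and the immune markers Ptprc, Cd3e, Lyz2 and Itgam lay at the floor in both populations, and Krt5, Oxtr and Cd68 were not analysed here. Probe sets of these markers with lower values in Venus High cells would be missing, so absence of such cells is not shown. Of 5 fibroblast markers, 4 had a value and 0 reached a signal of 100, with a summed signal of 99.97 in Venus High cells against 62.5 in Venus Low cells. Of 4 endothelial markers, 3 had a value and 0 reached a signal of 100, with sums of 33.7 in Venus High cells against 30.0 in Venus Low cells.

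Single genes of several glycan classes were counted as higher in Venus High cells, a direction that the table fixes. A gene was counted when its difference was at least 4-fold and its higher signal at least 100. Of the 87 members, 5 were counted: Hs3st6, Chsy3, Mgat5, Gcnt2 and St3gal1. This is 5.75% of the members, beside 2.38% of all 13869 genes of the table (330 genes). Of the 87 members, 12 reached a signal of 100, or 13.8%, beside 27.7% of all genes, and 49 members, or 56.3%, lay at the floor on both arrays, beside 48.2% of all genes. The other 26 were above the floor and below 100. The median log2 difference was 1.82 for the 12 members and 0.46 for all 3847 genes that reached 100. A gene that is low in Venus Low cells reaches that signal only by being high in Venus High cells. This holds for Hs3st6, Chsy3, Mgat5 and St3gal1, and of the 5 counted genes Gcnt2 alone reached it in both populations. The counts, shares and medians therefore describe the arrays and support nothing about the members.

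**Figure D1:**
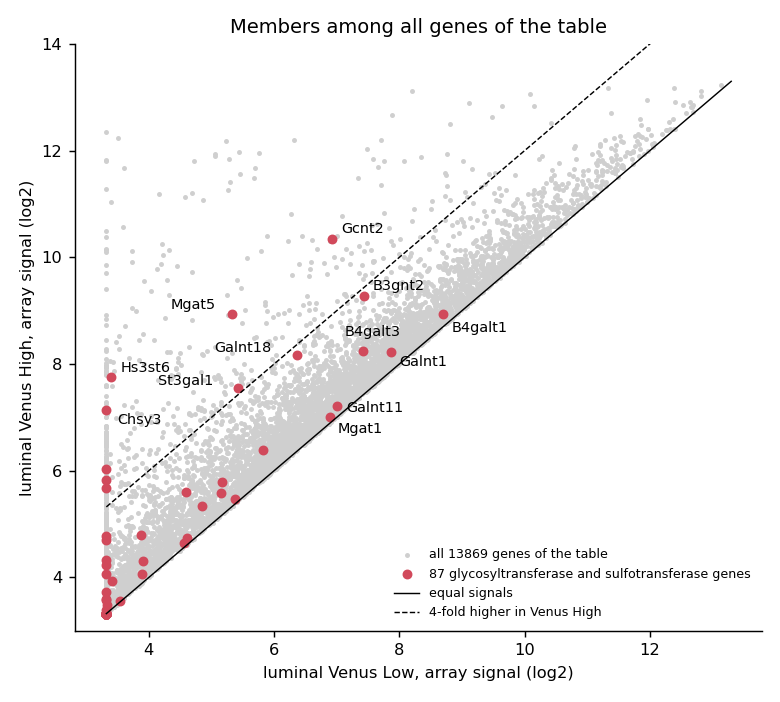
Array signal (log2) in luminal Venus High cells (vertical axis) against luminal Venus Low cells (horizontal axis), 1 array each, for all 13869 genes of the table (grey) and the 87 members (red), with lines for equal signals and for a 4-fold difference. Gcnt2, Mgat5, Hs3st6, Chsy3 and St3gal1 are the labelled members on or above the 4-fold line, and no gene lies below the line of equal signals.

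At a 2-fold difference, B3gnt2 and Galnt18 were also counted, which made 7 members, or 8.05%, beside 5.99% of all genes. With no signal minimum, 8 members, or 9.20%, were at least 4-fold higher, beside 3.25% of all genes, since Has2, Galnt9 and St3gal4 were then included. With every value below 100 raised to 100, 2 members, or 2.30%, were at least 4-fold higher, Gcnt2 and Mgat5, beside 1.22% of all genes. Just inside the 4-fold threshold lay St3gal1 with a log2 difference of 2.13, and just outside it B3gnt2 with 1.85. Just inside the signal minimum lay Mgat1, with a signal of 129 in Venus High cells, and just outside it Chsy1, with 83.4.

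**Figure D2:**
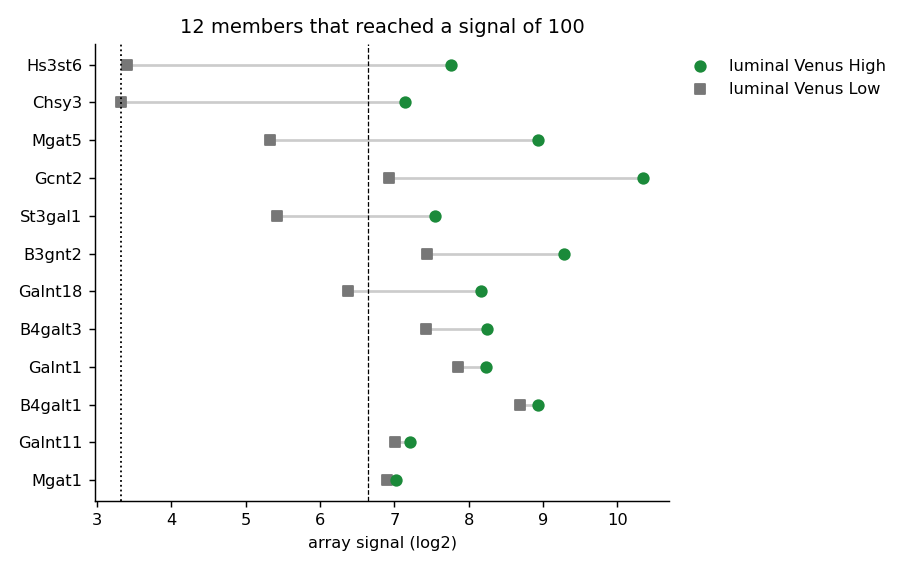
Array signal (log2, horizontal axis) of the 12 members that reached a signal of 100, with green circles for luminal Venus High and grey squares for luminal Venus Low, ordered by their difference. The dotted line marks the floor and the dashed line a signal of 100. Chsy3 lies at the floor and Hs3st6 just above it in Venus Low cells, and from Galnt1 down the gap is below 0.66.

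Of the branching enzymes, Gcnt2 and Mgat5 were higher in Venus High cells, and no other was counted. Gcnt2, the I-branching enzyme that places N-acetylglucosamine side branches on poly-N-acetyllactosamine chains, had log2 signals of 10.35 in Venus High cells against 6.92 in Venus Low cells, a 10.7-fold difference between values that both lay above a signal of 100. It ranked 147 by difference among the 3847 genes that reached that signal. Gcnt2 has 8 probe sets in the table, of which 6 were above the floor, and all 6 were higher in Venus High cells, a direction that the table fixes, since probe sets with lower values are not in it. The second of them had 7.84 in Venus High cells against 5.97 in Venus Low cells, and the third had 6.81 in Venus High cells against 4.80 in Venus Low cells, differences of 1.87 and 2.01. The other 3 differed by 1.77, by at least 2.06 and by at least 2.80, and 2 lay at the floor on both arrays. With the median of the 8 probe sets Gcnt2 lay below a signal of 100, with a difference of 2.30, and was no longer counted. Gcnt2 is known to be transcribed from alternative first exons, and which transcripts each probe set reads was not determined here. Of the rest of its family, Gcnt1, which makes core branches on mucin-type O-glycans, Gcnt3 and Gcnt7 were at the floor. Gcnt4 was not analysed here.

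Mgat5, which adds the beta1,6-linked N-acetylglucosamine branch to N-glycans, had log2 signals of 8.94 in Venus High cells against 5.33 in Venus Low cells, a 12.2-fold difference. A second probe set had 7.88 in Venus High cells against 4.82 in Venus Low cells, a difference of 3.05, and the last was at the floor on both arrays. With values below 100 raised to 100, the difference on the first was 2.29 on the log2 scale. Mgat1, which opens the branching pathway by adding the first N-acetylglucosamine, had 7.02 in Venus High cells against 6.90 in Venus Low cells. That difference of 0.12 is smaller than the SD between probe sets. Bringing the arrays to a common median makes it negative (-0.54), as it does every difference below the gap of 0.66 between them. Mgat3, the enzyme of the bisecting N-acetylglucosamine, had 4.79 in Venus High cells against 3.88 in Venus Low cells, both below 100. Mgat4c, Mgat4d, Mgat4e and Mgat5b lay at the floor in both populations, and Mgat2, Mgat4a, Mgat4b and Mgat4f were not analysed here. Of the 7 N-glycan branching genes, Mgat5 was the 1 counted.

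**Figure D3:**
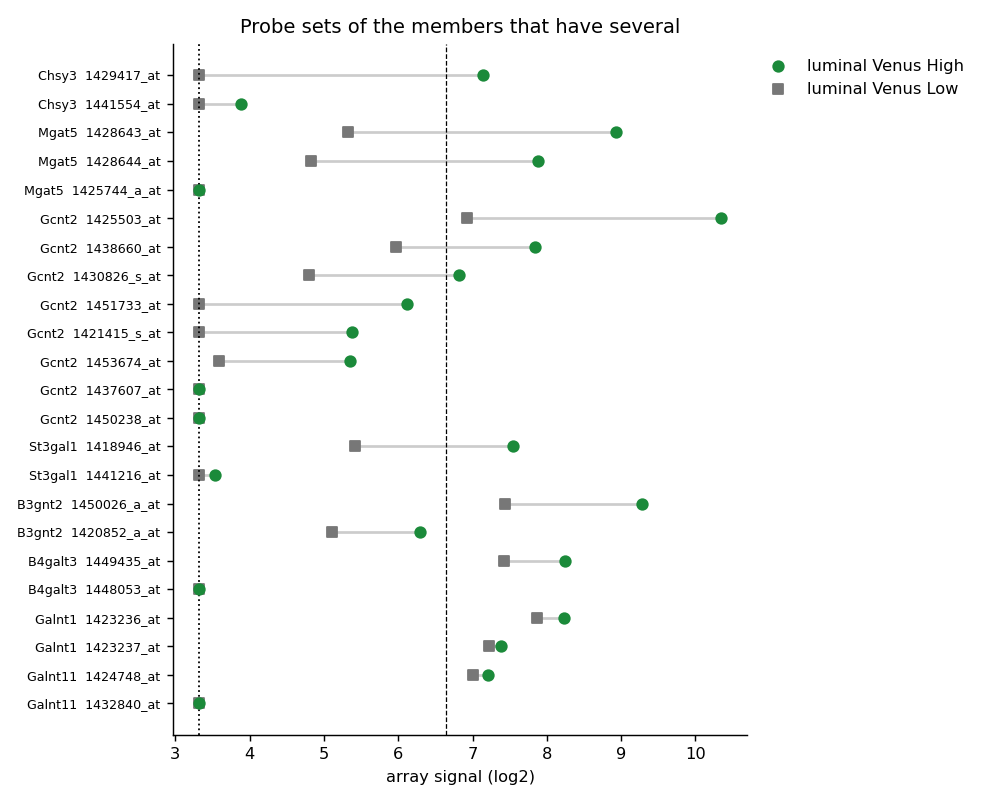
Array signal (log2, horizontal axis) on each probe set of the members that reached a signal of 100 and have several, with green circles for luminal Venus High and grey squares for luminal Venus Low, 1 array each. The dotted line marks the floor, where both symbols coincide for 2 probe sets of Gcnt2 and 1 each of Mgat5, B4galt3 and Galnt11, and the dashed line marks a signal of 100. All 6 other probe sets of Gcnt2 and both other probe sets of Mgat5 are higher in Venus High cells, a direction that the table fixes.

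Gcnt2 and Mgat5 were the members still at least 4-fold higher with values below 100 raised to 100, and their promoters are shown for that reason. The windows run from 250 bases before to 50 after each transcription start in RefSeq (GRCm38.p6), in which 7 of the 12 members that reached a signal of 100 were matched by symbol. Gcnt2 has 3 starts, the second 26990 and the third 30876 bases downstream of the one before it. Capitals mark matches, on either strand, to the estrogen receptor core motif GGTCA, the T-box core GGTGTGA, the FOXA core TGTTTAC and the progesterone receptor core TGTTCT.

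Gcnt2, most upstream start, chr13:40859518-40859817, plus strand: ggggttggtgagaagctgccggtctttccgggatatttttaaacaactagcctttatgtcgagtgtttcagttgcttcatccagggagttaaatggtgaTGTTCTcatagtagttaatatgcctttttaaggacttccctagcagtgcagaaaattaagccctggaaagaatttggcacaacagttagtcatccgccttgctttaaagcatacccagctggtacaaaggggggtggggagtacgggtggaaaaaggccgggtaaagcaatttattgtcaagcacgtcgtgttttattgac
Gcnt2, middle start, chr13:40886508-40886807, plus strand: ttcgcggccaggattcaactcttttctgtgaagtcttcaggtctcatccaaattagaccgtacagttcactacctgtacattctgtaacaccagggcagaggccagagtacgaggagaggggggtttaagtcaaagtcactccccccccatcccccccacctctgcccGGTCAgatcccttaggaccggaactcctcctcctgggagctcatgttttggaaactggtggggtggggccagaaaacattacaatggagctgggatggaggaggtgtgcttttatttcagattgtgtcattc
Gcnt2, most downstream start, chr13:40917384-40917683, plus strand: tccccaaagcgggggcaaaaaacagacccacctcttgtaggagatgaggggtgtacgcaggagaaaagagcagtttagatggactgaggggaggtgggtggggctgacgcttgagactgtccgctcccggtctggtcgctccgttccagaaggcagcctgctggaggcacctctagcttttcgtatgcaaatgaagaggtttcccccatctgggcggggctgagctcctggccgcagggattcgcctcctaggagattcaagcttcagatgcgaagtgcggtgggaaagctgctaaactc
Mgat5, chr1:127204736-127205035, plus strand: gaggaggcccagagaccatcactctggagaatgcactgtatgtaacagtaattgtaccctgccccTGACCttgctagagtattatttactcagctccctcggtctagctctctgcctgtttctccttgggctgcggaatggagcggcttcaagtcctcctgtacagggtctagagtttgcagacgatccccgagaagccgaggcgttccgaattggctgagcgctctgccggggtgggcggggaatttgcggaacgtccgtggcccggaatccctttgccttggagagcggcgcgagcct

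The middle Gcnt2 window and the Mgat5 window each hold 1 match to GGTCA, read as TGACC in Mgat5, a motif found in 40.5% of all 32851 windows of the table. The most upstream Gcnt2 window holds 1 match to TGTTCT, found in 19.0% of all windows, and the most downstream Gcnt2 window holds none of the 4 motifs. GGTGTGA (3.98% of all windows) and TGTTTAC (3.65%) were not found in these 4 windows, nor were 2 GGTCA motifs facing each other over 3 bases, an arrangement present in 0.0700% of all windows. Such matches describe letters only, and binding was not measured.

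Among the enzymes of chain extension and of the start of O-glycans, B3gnt2 and Galnt18 were more than 2-fold and less than 4-fold higher. B3gnt2, which builds the poly-N-acetyllactosamine chains that Gcnt2 branches, had log2 signals of 9.28 in Venus High cells against 7.43 in Venus Low cells, a 3.61-fold difference, and 6.29 in Venus High cells against 5.10 in Venus Low cells on its other probe set. Galnt18, of the family that attaches the first N-acetylgalactosamine of mucin-type O-glycans, had 8.16 in Venus High cells against 6.37 in Venus Low cells, a 3.45-fold difference. With the arrays centred on a common median these differences were 1.19 for B3gnt2 and 1.13 for Galnt18.

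Among the other galactosyltransferases and initiating enzymes of O-glycans, the 4 that reached a signal of 100 differed by less than 2-fold. B4galt3 had 8.25 in Venus High cells against 7.42 in Venus Low cells, a difference of 0.83, and its other probe set lay at the floor in both populations. With the arrays centred on a common median its difference was 0.17. B4galt1 had 8.94 in Venus High cells against 8.69 in Venus Low cells. Galnt1, an initiating enzyme found in many tissues, had 8.23 in Venus High cells against 7.86 in Venus Low cells on the first probe set and 7.38 in Venus High cells against 7.22 in Venus Low cells on the second. Galnt11, another initiating enzyme, had 7.21 in Venus High cells against 7.01 in Venus Low cells. The differences of B4galt1 (0.24), Galnt1 (0.37) and Galnt11 (0.20) lie at or near the SD between probe sets. They turn negative under quantile normalization and under a common median, as every difference below the gap of 0.66 does under the latter. Both scalings lower the differences of a table with no lower values, so this change of sign shows nothing about these genes. Their direction is fixed by the table and is not read.

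Of the 17 B3gnt, B3galt and B4galt genes with a value, 10 lay at the floor in both populations, among them B3galt1, B3galt2, B3galt5 and B3galt6, which add beta1,3-linked galactose. B4galt4, at the floor in Venus Low cells, had 4.77 in Venus High cells, and B4galt7, the galactosyltransferase of the proteoglycan linker, had 5.35 in Venus High cells against 4.85 in Venus Low cells. Of the 12 Galnt genes with a value, 6 lay at the floor in both populations. Galnt9 had 5.83 in Venus High cells and lay at the floor in Venus Low cells, a difference of at least 2.51 on the log2 scale between values below 100.

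Among the finishing enzymes with a value, a sialyltransferase was higher and the fucosyltransferases had little signal. St3gal1, which caps the galactose of core 1 O-glycans with alpha2,3-linked sialic acid, had log2 signals of 7.55 in Venus High cells against 5.42 in Venus Low cells, a 4.37-fold difference. Its other probe set had 3.54 in Venus High cells and lay at the floor in Venus Low cells. The call is lost with values below 100 raised to 100 (0.90 on the log2 scale), with median centring (1.47) or quantile normalization (1.40), and where the median of its probe sets is taken (1.17). Centring and quantile normalization lower the differences of a table with no lower values. St3gal4, another alpha2,3-sialyltransferase, had 5.67 in Venus High cells and lay at the floor in Venus Low cells, a difference of at least 2.35 below a signal of 100. St8sia5 had 3.60 in Venus High cells. On the probe sets left in the table, the other 8 of the 11 sialyltransferase genes with a value lay at the floor in both populations. St6gal1, with 1 probe set, and St3gal6 were among them. St3gal5, St8sia2 and St8sia6 were not analysed here.

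Of the 6 fucosyltransferase genes with a value, 0 reached a signal of 100. Fut8 and Fut9 were not analysed here. Fut11 had 5.48 in Venus High cells against 5.38 in Venus Low cells, Fut2, which makes the H antigen in epithelia, had 3.48 in Venus High cells against 3.33 in Venus Low cells, and Fut1, Fut4, Fut7 and Fut10 were at the floor. Both B4galnt genes with a value were below 100, with B4galnt4 at 4.74 in Venus High cells against 4.61 in Venus Low cells. Signal on these probe sets was therefore too low for a difference to be read.

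On the glycosaminoglycan side, a heparan sulfate sulfotransferase and a chondroitin synthase were higher, and both rest on Venus Low values at or near the floor. Hs3st6, a heparan sulfate 3-O-sulfotransferase, had log2 signals of 7.76 in Venus High cells against 3.40 in Venus Low cells, a difference of 4.36 on its only probe set. Its size depends on the floor: it was 2.76 with values below 32 raised to 32 and 1.11 with values below 100 raised to 100. Chsy3, a chondroitin synthase, had 7.14 in Venus High cells and lay at the floor in Venus Low cells, which makes it at least 14.1-fold higher, or 0.50 on the log2 scale with values below 100 raised to 100. Its other probe set had 3.88 in Venus High cells and lay at the floor in Venus Low cells, and with the median of both Chsy3 lay below a signal of 100 and was no longer counted.

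Their relatives with a value lay below a signal of 100. Hs3st2 had 5.58 in Venus High cells against 5.15 in Venus Low cells, Hs3st3b1 had 3.94 in Venus High cells against 3.41 in Venus Low cells, and Hs3st4, Hs6st2 and Hs6st3 lay at the floor in both populations. Chsy1, another chondroitin synthase, had 6.38 in Venus High cells against 5.83 in Venus Low cells, and Chpf2, a partner in chain polymerization, had 5.79 in Venus High cells against 5.17 in Venus Low cells. These differences of 0.55 and 0.62 are below the gap of 0.66 between the array medians, and their direction is fixed by the table. Of the chain-building genes Ext2, Extl2 and Extl3, Ext2 had 4.07 in Venus High cells against 3.89 in Venus Low cells, Extl2 had 4.65 in Venus High cells against 4.56 in Venus Low cells, and Extl3 was at the floor. Ext1, Ndst1, Ndst2, Hs2st1 and Hs6st1 were not analysed here, so the chain-building step as a whole has no direction.

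Those carbohydrate sulfotransferases of the Chst family that had a value, and the hyaluronan synthases, had signals below 100. Of 9 Chst genes with a value, 7 lay at the floor in both populations. Chst1, Chst3, Chst5, Chst9 and Chst10 were not analysed here. Chst14, a dermatan sulfate 4-O-sulfotransferase, had 5.59 in Venus High cells against 4.60 in Venus Low cells, and Chst8, which sulfates N-acetylgalactosamine, had 4.71 in Venus High cells and lay at the floor in Venus Low cells. Has2, a hyaluronan synthase, had 6.03 in Venus High cells on the first probe set and 5.60 on the second, and lay at the floor in Venus Low cells on both, which are differences of at least 2.71 and at least 2.28. Has1 had 4.06 and Has3 had 3.58 in Venus High cells, and both lay at the floor in Venus Low cells. Beside these matrix-related enzymes, the fibroblast marker Dcn had 6.01 in Venus High cells against 4.89 in Venus Low cells, while Col1a1 had 3.47 in Venus High cells and was at the floor in Venus Low cells and Col3a1 lay at the floor in both populations. The part of such cells in the Has2 and Chsy3 values was not tested.

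**Figure D4:**
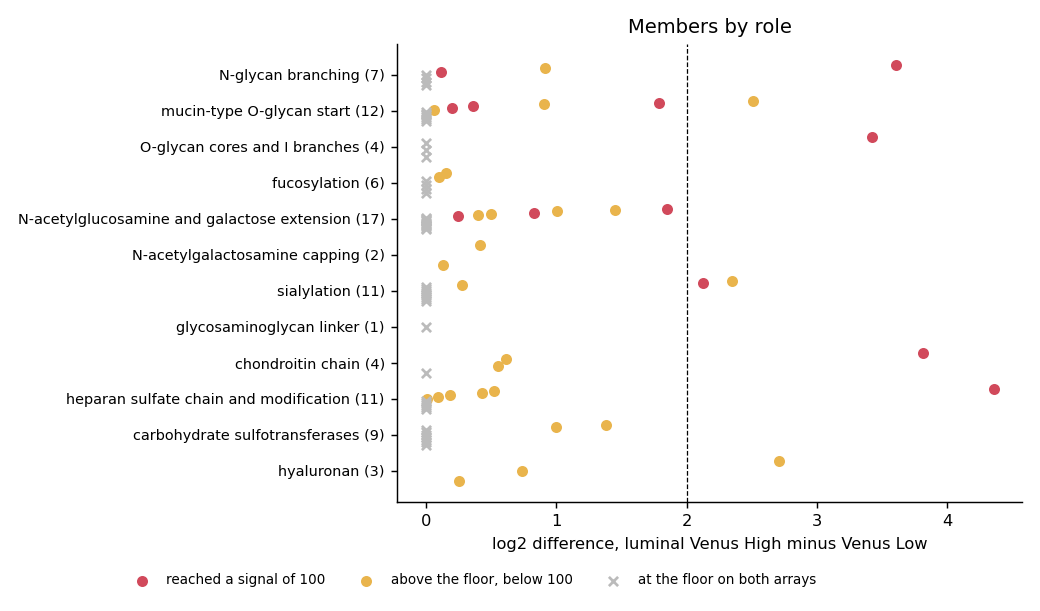
Log2 difference, luminal Venus High minus Venus Low (horizontal axis), of the 87 members, with 1 symbol per gene and the number of genes of each role in brackets. Red circles reached a signal of 100, yellow circles lay between the floor and 100, grey crosses were at the floor on both arrays, the dashed line marks a 4-fold difference, and a vertical offset within a role only separates the symbols. Single genes of 5 roles stand to the right of the line in red, and no red circle appears for fucosylation, the Chst sulfotransferases or hyaluronan.

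Genes around these enzymes, from lists for the same pathway, included larger differences. Man1a, a Golgi mannosidase that trims N-glycans before they can be branched, had log2 signals of 11.08 in Venus High cells against 4.86 in Venus Low cells, a 74.4-fold difference, and its other probe set had 10.94 in Venus High cells against 4.35 in Venus Low cells. Among 27 genes of N-glycan assembly and trimming, 22 had a value, 15 reached a signal of 100, and Man1a alone was at least 4-fold higher (1 of 22 genes, beside 2.38% of all genes), or 4.44 on the log2 scale with values below 100 raised to 100. Man2a2, a mannosidase of the later Golgi step, had 7.93 in Venus High cells against 6.42 in Venus Low cells. Alg14 differed by 1.27, and Dad1, a subunit of the oligosaccharyltransferase, had 11.29 in Venus High cells against 10.29 in Venus Low cells. The median over the 15 was 0.73, beside 0.46 for all genes that reached 100. As for the members, such medians describe the arrays and support nothing about the list.

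Of 43 genes for sugar nucleotide and sulfate donors, 29 had a value, 18 reached a signal of 100 and 2 passed the 4-fold threshold (6.90% of the 29, beside 2.38% of all genes), both in the route to UDP-N-acetylglucosamine, the donor that Mgat5, Gcnt2 and B3gnt2 use. Gfpt2, an isoform of the enzyme that opens this route, had 8.18 in Venus High cells against 4.85 in Venus Low cells, or a difference of 1.54 with values below 100 raised to 100, which ends its call. Gnpnat1, an acetyltransferase further along it, had 8.94 in Venus High cells against 6.76 in Venus Low cells, and differed by 1.66 and 1.46 on its 2 other probe sets. With the arrays centred on a common median its difference was 1.52, below 4-fold. Of the other genes of this route, Pgm3 had 6.38 in Venus High cells against 5.91 in Venus Low cells, and Uap1 lay at the floor in both populations. Gfpt1, the other isoform of the first enzyme, differed by 0.97. Mpi differed by 1.53 and Uxs1, which makes UDP-xylose for the proteoglycan linker, by 1.48. The median of the 18 was 0.57, beside 0.46 for all genes that reached 100, and supports nothing about the list.

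Of 32 core proteins that carry these glycans, 22 had a value and 4 reached a signal of 100, of which 3 were at least 4-fold higher (13.6% of the 22, beside 2.38% of all genes). With values below 100 raised to 100 this was 1 gene, Podxl, beside 1.22% of all genes. Podxl, a sialylated mucin-like membrane protein, had 11.36 in Venus High cells against 7.71 in Venus Low cells, and the heparan sulfate proteoglycan gene Gpc1 had 8.41 in Venus High cells against 3.48 in Venus Low cells, or a difference of 1.77 with values below 100 raised to 100. Muc13, a membrane mucin, differed by 3.44 (1.15 with values below 100 raised to 100). Sdc1, a syndecan that carries heparan and chondroitin sulfate, had 10.70 in Venus High cells against 8.73 in Venus Low cells and differed by 1.66 to 2.20 on its 4 probe sets. Of 54 other transferases and modifying enzymes, 35 had a value, 9 reached a signal of 100 and 0 passed the 4-fold threshold. C1galt1, which makes the core 1 O-glycan that St3gal1 caps, had 8.21 in Venus High cells against 6.58 in Venus Low cells, and Pomgnt1 of the O-mannose pathway had 8.63 in Venus High cells against 7.33 in Venus Low cells. Pofut1, which fucosylates Notch, differed by 1.02, and B3galnt2 by 0.61. The median of the 9 was 0.59, beside 0.46 for all genes that reached 100, and likewise supports nothing about the list.

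**Figure D5:**
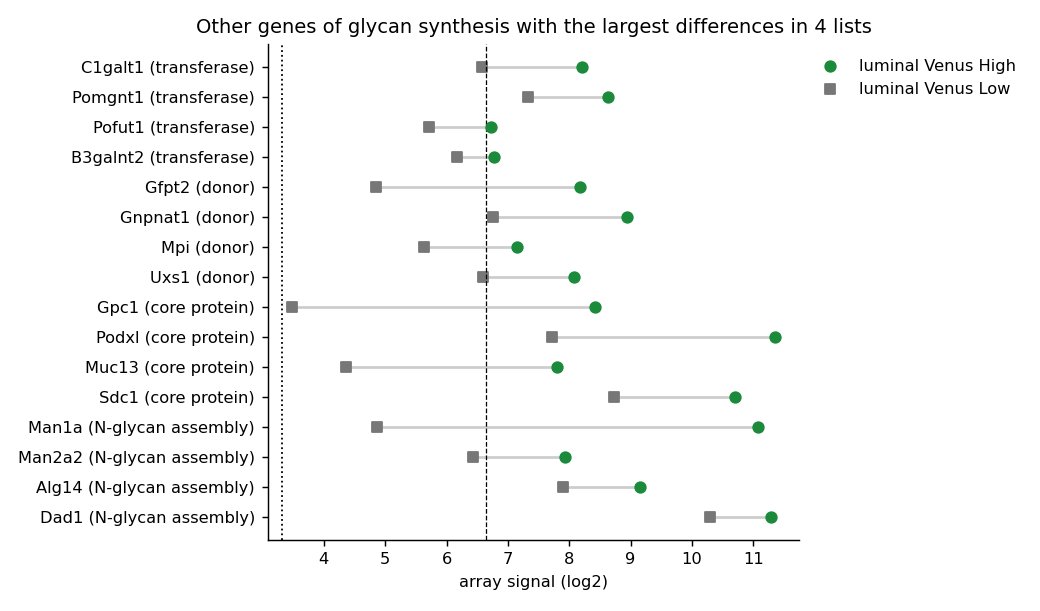
Array signal (log2, horizontal axis) of 16 genes from 4 pathway lists, the 4 most different of each that reached a signal of 100, with green circles for luminal Venus High and grey squares for luminal Venus Low, 1 array each. The dotted line marks the floor and the dashed line a signal of 100. Man1a shows the widest gap, 6.22, and Gpc1, Podxl, Muc13, Gfpt2 and Gnpnat1 are the other genes past 2.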

How the data were processed

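RNA of both sorted populations was measured on Affymetrix mouse expression arrays, from 250 ng of total RNA whose integrity number exceeded 9.4. The deposited values are log2 signals, which the authors log2-transformed and then normalized and centred per sample with BRB Array software. The submitters' processing notes name MAS5, and what the normalization refers to is not stated there. The table has 0 columns of other samples. Of its 29338 probe sets, 22223 are paired with 1 gene symbol in the platform annotation, 602 with several and 6513 with none. Gene identifiers of 22060 were found in the RefSeq table of GRCm38.p6, which changed 0 symbols. Where a gene had several probe sets, the one brightest on average over both arrays stood for it.

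No test was possible with 1 array per population. Every member that reached a signal of 100 was named, with up to 4 genes of each pathway list by size of difference. The members, lists and thresholds were chosen with earlier results of these data known. Genes outside these rules, among them members below 100, were named to account for their group. Scalings, floors, probe set rules, signal minimums and thresholds were varied. Computation used Python 3.11.15, numpy 2.4.6, pandas 2.3.3 and matplotlib 3.10.9, and was tested on simulated data.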

Additional observations from a re-analysis of the deposited data

How the results depend on the processing

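The count of 5 members at least 4-fold higher was 2 with values below 100 raised to 100 (169 genes of the whole table against 330) and 2 with probe sets of a gene reduced to their median (255 genes), 8 with a signal minimum of 50 or with none (427 and 451 genes), and 3 with a minimum of 200 (245 genes). It was 4 after median centring, after quantile normalization and at 8-fold (204, 196 and 183 genes of the whole table), 7 at 2-fold (831 genes) and 5 under the other alternatives. The median difference of 1.82 was 0.87 with values below 100 raised to 100, 1.16 after median centring, 1.15 after quantile normalization, 0.00 with no signal minimum and 0.83 when the list of other transferases was added. Galnt1 (-0.29 and -0.29), B4galt1 (-0.42 and -0.44), Galnt11 (-0.46 and -0.50) and Mgat1 (-0.54 and -0.58) became negative after median centring and quantile normalization, which lower the differences of a table with no lower values. Hs3st6, Chsy3 and St3gal1 fell below 4-fold with values below 100 raised to 100. With the median of their probe sets, Gcnt2, Chsy3 and St3gal1 no longer reached a signal of 100. The symbols of the annotation gave the same values. No paired analysis was possible because each population has 1 array. The number of arrays, the floor and the missing lower values limit what can be read.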

Other observations

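The probe sets paired with several symbols that include a gene of these families numbered 2, for Hs3st5 with Apba3 and for B4galt2 with Ccdc24, and both were at the floor on both arrays.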
